A study of Mus musculus with 5 samples.

Results

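The beta-catenin destruction complex and its nuclear partners were followed across 5 arrays of mouse pancreatic cultures as 10 genes of the 19938 genes tested. They were chosen by name: Apc, Apc2, Axin1, Ctnnb1, Gsk3a, Gsk3b, Csnk1a1 and Btrc, with the transcription factors Tcf7l1 and Tcf7l2. Each gene was read from the probe set that names it and no other gene, and each of the 10 had exactly 1 such probe set. RNA from each culture was hybridised to an Affymetrix whole-transcript array, which gives 1 log2 signal per probe set. The normal ductal group was 2 cultures labelled as normal pancreatic duct cells with genotype p53L/L, a pair of floxed p53 alleles. The PDAC group was 3 cultures of primary pancreatic ductal adenocarcinoma cells with genotype APCL/+p53L/L, which adds 1 floxed Apc allele to the same p53 alleles. The titles give Pdx-1Cre, a Cre recombinase driven from a promoter of the pancreatic lineage, for all cultures but normal ductal replicate 2, whose title reads Pdx-1 and leaves out the word ductal that its source and cell type labels give. The title of PDAC replicate 3 alone adds the words mutant cell. All cultures were grown for fewer than 6 passages in medium with serum. The labels speak of biological replicates but name no animals, so each p-value rests on the spread between 5 cultures of unstated origin, which may be technical.

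Beta-catenin, the product of Ctnnb1, links cadherins to the actin skeleton and also enters the nucleus as the effector of canonical Wnt signalling. Outside the junction it is held by the scaffolds APC and axin, phosphorylated by casein kinase 1 and then by GSK3, and passed to the ubiquitin ligase subunit beta-TrCP for degradation. Beta-catenin that escapes binds TCF factors at target genes, several of which encode feedback inhibitors of the pathway. Much of this control acts on protein, which these arrays did not measure.

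Array medians lay between 5.90 and 6.02. Averaged over 12 epithelial markers, the normal ductal arrays stood at 10.45 and 10.13 and the PDAC arrays at 6.04, 6.47 and 7.72 (replicates 1 to 3). Of the 10 listed duct markers 8 were measured, with a mean over the 8 of 9.19 and 8.98 for the normal ductal pair against 6.03, 7.32 and 8.97 in PDAC cultures, so PDAC replicate 3 lay at the edge of the normal ductal values. The duct keratin Krt19 stood at 6.47 in PDAC replicate 1. Normal ductal replicate 2 held more signal of other pancreatic cells than replicate 1, with 9 of 12 fibroblast and stellate markers, 3 of 7 acinar, 5 of 9 islet, 5 of 10 endothelial and 2 of 9 leukocyte markers more than 1 higher. The acinar gene Ctrb1, for example, was at 12.26 there and between 5.90 and 6.08 in the other cultures. Fibroblast and stellate markers averaged 7.21 and 9.55 in the normal ductal pair against 9.40, 9.60 and 9.23 in PDAC cultures. For that group normal ductal replicate 2 was thus level with the PDAC cultures, and normal ductal replicate 1 was the low culture. In such bulk samples fewer cells of a type and less RNA per cell cannot be told apart.

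Promoter sequence was found in the RefSeq promoter table (GRCm38.p6) for 6 of the 10 genes. Those of Ctnnb1, of both GSK3 kinases and of the TCF factors are printed because the values below turn on these genes. They end at the last base before the gene, are written 5′ to 3′ on the gene's own strand, and lie at chr9:120933150-120933399 (plus strand), chr7:25237852-25238101 (minus), chr16:38088751-38089000 (plus), chr6:72789046-72789295 (minus) and chr19:55741560-55741796 (plus), in that order. Capitals mark a match to CTTTGAT or CTTTGAA, core motifs of TCF binding, read on both strands.
Ctnnb1: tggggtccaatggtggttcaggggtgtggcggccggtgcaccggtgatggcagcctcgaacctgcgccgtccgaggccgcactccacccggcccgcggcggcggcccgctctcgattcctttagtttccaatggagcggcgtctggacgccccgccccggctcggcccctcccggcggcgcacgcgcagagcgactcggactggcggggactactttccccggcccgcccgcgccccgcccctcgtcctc
Gsk3a: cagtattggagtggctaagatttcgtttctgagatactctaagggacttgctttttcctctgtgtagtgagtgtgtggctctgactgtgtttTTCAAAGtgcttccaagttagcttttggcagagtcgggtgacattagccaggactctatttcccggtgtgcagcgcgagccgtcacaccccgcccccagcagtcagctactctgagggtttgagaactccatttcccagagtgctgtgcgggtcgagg
Gsk3b: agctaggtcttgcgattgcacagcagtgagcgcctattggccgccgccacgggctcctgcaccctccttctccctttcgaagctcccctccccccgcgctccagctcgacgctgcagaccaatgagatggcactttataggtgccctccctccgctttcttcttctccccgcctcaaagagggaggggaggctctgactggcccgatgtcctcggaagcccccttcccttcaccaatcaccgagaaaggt
Tcf7l1: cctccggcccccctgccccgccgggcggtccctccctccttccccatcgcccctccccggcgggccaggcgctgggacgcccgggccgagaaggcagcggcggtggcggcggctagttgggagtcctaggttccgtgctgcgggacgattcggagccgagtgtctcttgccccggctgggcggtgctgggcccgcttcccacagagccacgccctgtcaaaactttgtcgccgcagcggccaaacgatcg
Tcf7l2: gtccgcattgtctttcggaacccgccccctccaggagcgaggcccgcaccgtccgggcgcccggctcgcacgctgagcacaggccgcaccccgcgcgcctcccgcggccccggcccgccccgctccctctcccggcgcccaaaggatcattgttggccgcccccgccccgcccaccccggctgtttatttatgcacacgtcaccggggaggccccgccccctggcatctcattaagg
The stretch before Gsk3a held 1 match, which starts 158 bases before the gene and reads TTCAAAG, the motif CTTTGAA on the other strand. None of the windows of Apc2, Ctnnb1, Gsk3b, Tcf7l1 and Tcf7l2 in the table held one. Of all 32851 RefSeq windows of 250 bases, 7.48% held at least 1 match, and a match describes letters, not binding. The windows before Ctnnb1, Tcf7l1 and Tcf7l2 were rich in G and C (74.8%, 73.6% and 73.8%), and that before Gsk3a was the least so of the 5 at 52%.

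**Figure D1:**
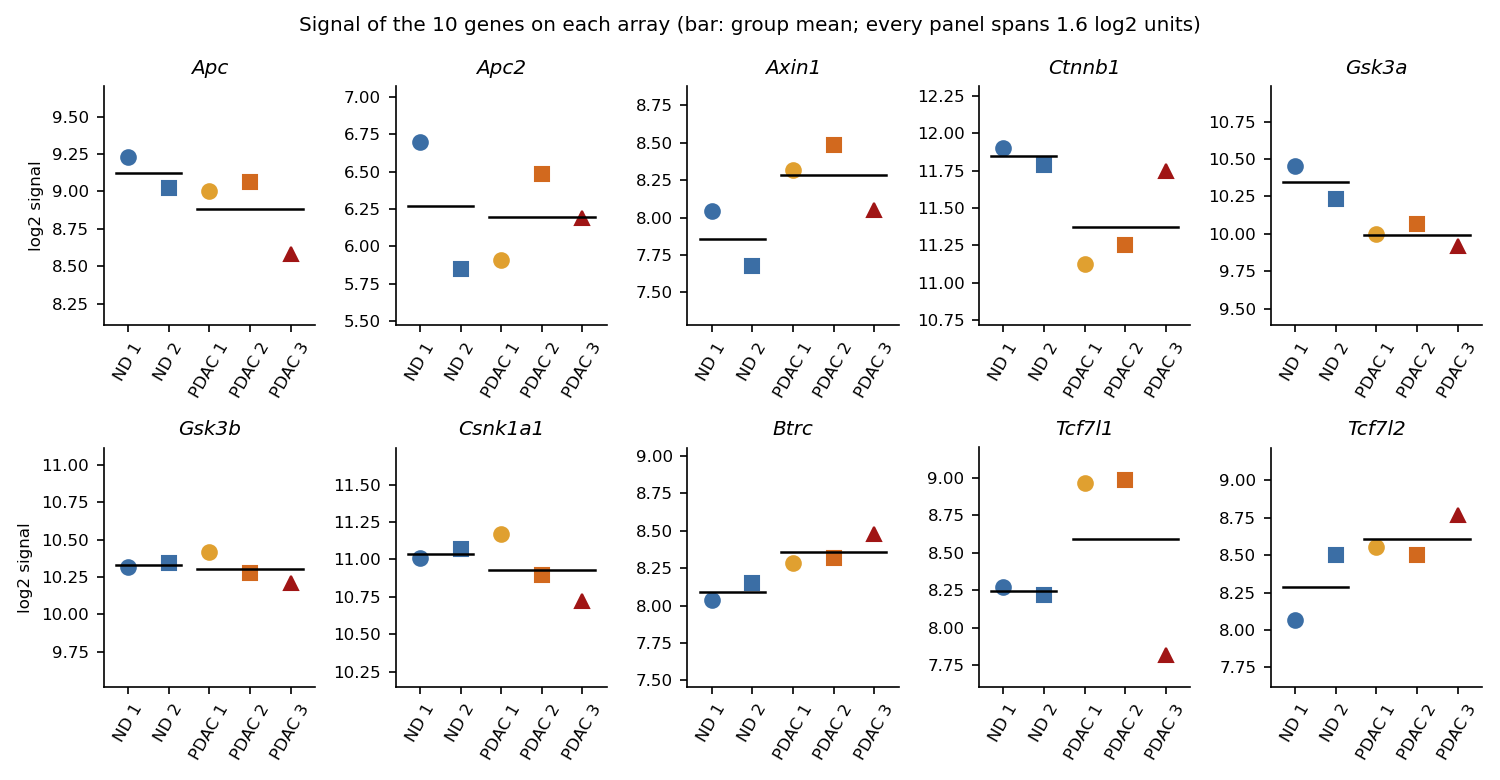
Log2 signal (y axis) of each of the 10 genes on the normal ductal (ND, blue) and PDAC (orange to red) arrays, with black bars at the group means and every panel spanning 1.6 log2 units. Gsk3a lies lower in all 3 PDAC cultures, while PDAC replicate 3 (triangle) parts from the other PDAC cultures in Ctnnb1 and Tcf7l1.

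The comparison of PDAC with normal ductal cultures asked whether the tumour cells differ in the genes of this complex. Only the tumour cultures carry the floxed Apc allele. The allele, the tumour state and the lower epithelial markers therefore cannot be told apart. The differences were small, and none of the 10 passed the test. The moderated test of limma with Benjamini-Hochberg adjustment over all genes called 0 of the 10, where it called 0.0552% of all genes (11 genes). At an unadjusted p under 0.05 it gave 1, Gsk3a, where 13.4% of all genes lay under that p. The groups did not overlap for 4 of the 10 (Axin1 and Btrc higher, Ctnnb1 and Gsk3a lower in PDAC), where 26.4% of all genes did not overlap (13.6% higher and 12.8% lower). Without the 50% of genes lowest in mean signal, which leaves 9 of the 10, the share over the remaining genes was 40.1%. The median log2 difference of the 10 was -0.05, against 0.01 for all genes, and the median size without sign was 0.30 against 0.15. Of the 10, 9 lay above the median gene in signal, and the 0.15 was not taken over genes of like signal.

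The width of the intervals shows what this number of cultures could resolve. For 7 of the 10 genes the 95% interval of the log2 difference, not adjusted for the number of genes, lay wholly between -1 and 1, a 2-fold change in either direction. The intervals of Ctnnb1 (-1.09 to 0.14) and Apc2 (-1.02 to 0.86) reached just past -1, and that of Tcf7l1 (-0.89 to 1.59) reached past 1. The narrowest was that of Gsk3b, from -0.27 to 0.22.

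**Figure D2:**
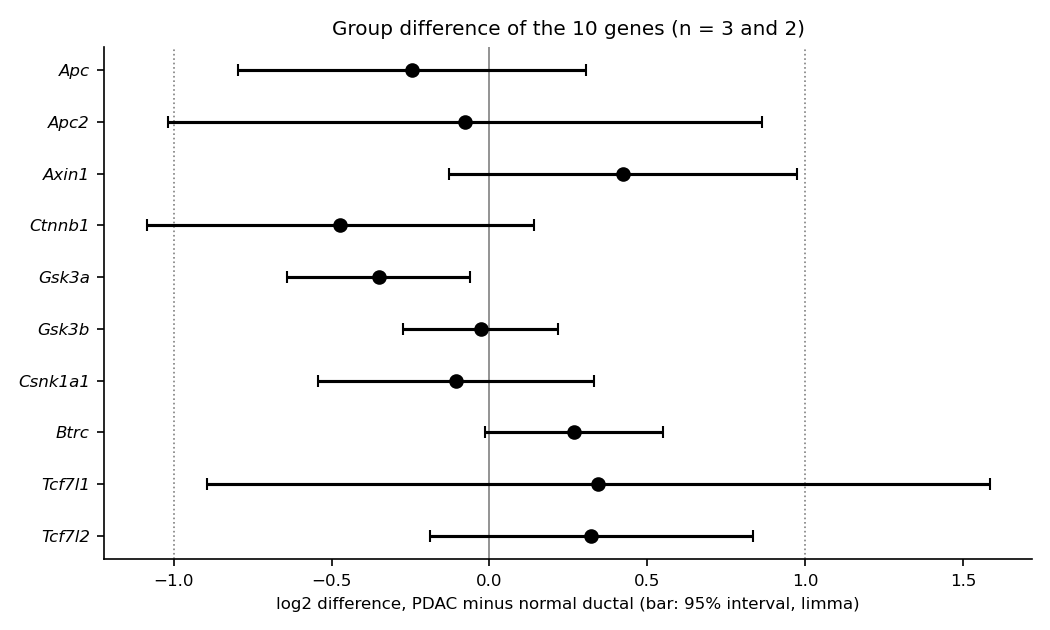
Log2 difference, PDAC minus normal ductal (x axis, points), with its 95% limma interval (bars) for each of the 10 genes, over 3 PDAC and 2 normal ductal arrays; dotted lines mark -1 and 1. The interval of Gsk3a (-0.64 to -0.06) alone leaves out 0, and that of Tcf7l1 is the widest.

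Apc, the targeted gene, encodes the large scaffold that holds beta-catenin in the complex, and lies on chromosome 18 from 34220297 to 34322190 (GRCm38). The normal ductal arrays gave it a log2 signal of 9.23 and 9.02, and PDAC replicates 1 to 3 gave 9.00, 9.06 and 8.58. PDAC replicate 3 was the lowest of the 5, and PDAC replicate 2 lay between the normal ductal cultures. The log2 difference was -0.25 (SE 0.20), a fold of 0.844, with an interval of -0.80 to 0.30 that does not reach -1 (limma adjusted p = 0.590). Without PDAC replicate 3 the difference was -0.09. The labels do not say which exons are floxed and the files do not say which exons the probes cover, so this signal does not check the allele.

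The genes next to Apc did not share 1 direction. Over the 5 measured genes on either side, a span of 1349 kb, log2 differences ran from -0.61 to 0.72 with a median of 0.04, and limma called 0 of the 10 adjusted over all genes and 0 at an unadjusted p under 0.05. Reep5, which shapes the endoplasmic reticulum, had the smallest p of those lower in PDAC (-0.27, SE 0.10, adjusted p = 0.397), and Stard4, a sterol carrier, that of those higher (0.72, SE 0.35, adjusted p = 0.521). Relative to the normal ductal mean, the median of these neighbours was -0.04, 0.10 and 0.06 in PDAC replicates 1, 2 and 3. That median includes the dim Pkd2l2, Gm10549 and Wnt8a (normal ductal means 3.19, 4.86 and 5.35). Apc in replicate 3 stood 0.55 below its normal ductal mean, and some neighbours lay farther below theirs. Epb41l4a lay 0.65 below, and Fam13b was at 8.03 against 9.03. Reep5 lay 0.32 below. Nrep (9.23 against 7.57), Stard4 (8.83 against 7.53) and, by less, Gm10548, Gm10549 and Srp19 lay above, with Pkd2l2 and Wnt8a level. All but Reep5 and Stard4 were named after their values were seen.

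Apc2, a relative of Apc best known from the nervous system, gave the dimmest signal of the 10 and the only one under the median gene. It stood at 6.69 and 5.85 in the normal ductal pair against 5.91, 6.48 and 6.19 in PDAC cultures. Its gap between the normal ductal cultures was as wide as or wider than that of all but 5.40% of genes, and the PDAC values lay inside it. The log2 difference of -0.08 (SE 0.34) was well within that spread.

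Axin1, the scaffold on which the complex assembles, was at 8.04 and 7.68 in the normal ductal pair against 8.32, 8.48 and 8.05 in PDAC cultures. The groups did not overlap, but PDAC replicate 3 (8.05) barely exceeded normal ductal replicate 1 (8.04). The log2 difference was 0.42 (SE 0.20), a fold of 1.34, short of the threshold in limma (adjusted p = 0.498). Without normal ductal replicate 2, which held more signal of other pancreatic cells than replicate 1, it was 0.24. Without normal ductal replicate 1 it was 0.61. The part of those cells in the difference was not tested.

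The GSK3 kinases, which place the phosphates that beta-TrCP reads, gave different values. Gsk3a was at 10.46 and 10.23 in the normal ductal pair against 10.00, 10.06 and 9.92 in PDAC cultures, so that every PDAC culture lay below both normal ductal ones. Its log2 difference of -0.35 (SE 0.10, n = 2 and 3), a fold of 0.784, had the smallest p of the 10 (limma unadjusted p = 0.0284, adjusted p = 0.315). The PDAC cultures were close together, with an SD of 0.07. Gsk3b was at 10.32 and 10.34 in the normal ductal pair against 10.42, 10.28 and 10.21 in PDAC cultures, a log2 difference of -0.03 (SE 0.09) that turned to 0.06 with arrays set to a common median. The Gsk3a and Gsk3b intervals overlap, and the difference between the kinases was not tested.

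With arrays at a common median the Gsk3a difference was -0.27 (limma unadjusted p = 0.108), and without normal ductal replicate 1 it was -0.24 (0.0898). The unadjusted p was also not under 0.05 with the replicate block (0.146) or without PDAC replicate 1 (0.0755), 2 (0.05) or 3 (0.0716). The difference kept its sign in all 15 alternatives, from -0.46 to -0.24. Filters on low genes and other variance models leave the estimate at -0.35, as do other uses of probe sets, since each gene had 1. The replicate block gave the same -0.31 as leaving out PDAC replicate 3.

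Csnk1a1, the casein kinase that primes beta-catenin for GSK3, was at 11.01 and 11.07 in the normal ductal pair against 11.17, 10.90 and 10.72 in PDAC cultures. The PDAC cultures lay on both sides of the normal ductal values (log2 difference -0.11, SE 0.16, interval -0.54 to 0.33). Btrc, which encodes beta-TrCP, the subunit that recognises phosphorylated beta-catenin, was at 8.04 and 8.15 in the normal ductal pair against 8.28, 8.32 and 8.48 in PDAC cultures. All PDAC cultures lay above both normal ductal ones, by a log2 difference of 0.27 (SE 0.10, limma unadjusted p = 0.0578, adjusted p = 0.395).

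Ctnnb1 itself, on chromosome 9 from 120933400 to 120960507 (GRCm38), was at 11.90 and 11.79 in normal ductal cultures. In PDAC replicates 1, 2 and 3 it was at 11.13, 11.25 and 11.74. All 3 lay below the normal ductal values, but replicate 3 only just, so the PDAC group had an SD of 0.33 against 0.08 in normal ductal. The log2 difference was -0.47 (SE 0.22), a fold of 0.721 and the largest in size of the 10, yet 19.8% of all genes differed by at least as much (limma adjusted p = 0.497). Without PDAC replicate 3 it was -0.66 (unadjusted p = 0.00463, adjusted p = 0.192).

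Several junction genes stood lower in every PDAC culture, none of them past the adjusted threshold. Of 12 measured junction partners, limma called 0 adjusted over all genes and 4 lower and 0 higher before adjustment, with p under 0.05 (6.86% of all genes were lower and 6.5% higher at that p). The groups did not overlap for 6, all lower in PDAC (26.4% of all genes did not overlap, 12.8% being lower), and the median log2 difference was -0.67 against 0.01 for all genes. Without the 50% of genes lowest in mean signal the share in either direction was 40.1%, a filter not applied to the 12. Afdn, which encodes the actin-binding protein afadin, had -1.16 (SE 0.26), Ctnnd1, the p120 catenin that keeps cadherins at the surface, -0.95 (SE 0.27), Plekha7, which binds p120, -1.37 (SE 0.46) and alpha-catenin, Ctnna1, -0.66 (SE 0.23), with adjusted p between 0.243 and 0.362. Without PDAC replicate 1, 1 of the 12 lay under an unadjusted p of 0.05 in limma, where 9.78% of all genes did.

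E-cadherin and plakoglobin were graded over the PDAC cultures. Cdh1 was at 12.32 and 11.96 in the normal ductal pair against 6.41, 8.33 and 10.76 in PDAC replicates 1, 2 and 3. Jup, which encodes plakoglobin, the close relative of beta-catenin, was at 12.26 and 11.57 and at 8.84, 9.21 and 11.15 in the same order. Both stood highest among the PDAC cultures in replicate 3, as Ctnnb1 did, but the spans differed: the PDAC cultures spanned 0.62 log2 units in Ctnnb1. N-cadherin, Cdh2, had values of 11.36 and 9.83 in the normal ductal pair against a range of 10.51 to 11.11 in PDAC cultures (log2 difference 0.27, SE 0.54), and was named after its values were seen. Epithelial marker means moved alongside these values in the PDAC cultures (6.04, 6.47 and 7.72). The markers include Cdh1, so this likeness is partly built in, and their part was not tested.

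**Figure D3:**
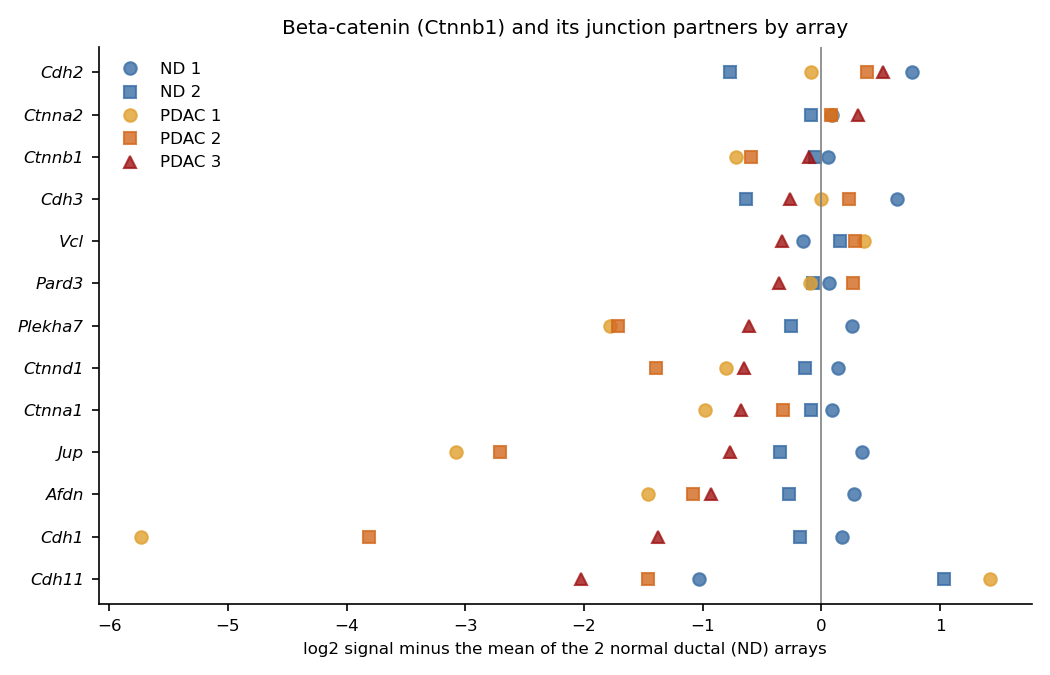
Log2 signal of Ctnnb1 and the 12 measured junction partners on each array, minus the mean of the 2 normal ductal (ND) arrays (x axis). Cdh1 and Jup spread widely over the PDAC cultures and are nearest to normal ductal in PDAC replicate 3, while Ctnnb1 stays within 1 log2 unit of the normal ductal mean in every culture.

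Of the 10 genes, Tcf7l1 had the widest spread among the tumour cultures. Tcf7l1, known mainly as a repressor of Wnt targets, was at 8.27 and 8.22 in normal ductal cultures and at 8.96 and 8.99 in PDAC replicates 1 and 2, but at 7.82 in PDAC replicate 3. PDAC cultures thus lay on both sides of the normal ductal pair, with an SD of 0.67 that only 6.24% of all genes reached. The log2 difference was 0.35 (SE 0.44, adjusted p = 0.727), and without PDAC replicate 3 it was 0.73 (limma unadjusted p = 0.00222, adjusted p = 0.174). PDAC replicate 3 differed from the mean of the other PDAC cultures by -1.16, a gap that 3.85% of all genes matched or passed in size.

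Tcf7l2, the TCF factor best known as a partner of beta-catenin in gut epithelium, ran the other way in that culture. It was at 8.07 and 8.50 in the normal ductal pair against 8.55, 8.50 and 8.77 in PDAC cultures, the highest value being that of PDAC replicate 3. The value of normal ductal replicate 1 was the low one, and normal ductal replicate 2 lay level with PDAC replicate 2. The log2 difference was 0.32 (SE 0.18, adjusted p = 0.550), and 0.11 without normal ductal replicate 1. Lef1, another factor of the family, was at 6.45 and 8.20 in the normal ductal pair against a range of 7.09 to 7.37 in PDAC cultures (log2 difference -0.09, SE 0.58). Tcf7 was not analysed here.

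PDAC replicate 3 had the lowest signal of the 5 arrays for 5 of the 10 genes: Apc, Gsk3a, Gsk3b, Csnk1a1 and Tcf7l1. It was the lowest array for 17.7% of all genes. For Btrc and Tcf7l2 it was the highest, which held for 16.1% of all genes. After quantile normalization it was the lowest for 3 of the 10, Apc, Csnk1a1 and Tcf7l1, since Gsk3a and Gsk3b lay 0.08 and 0.06 below the next array as deposited and above another after it. With arrays at a common median the count was 5. This pattern was noted after the values were seen and rests on 1 culture.

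The same culture stood apart in target genes of the pathway. Of 23 measured feedback and target genes, 9 were highest in PDAC replicate 3 (8 after quantile normalization and 8 with a common median), where 16.1% of all genes were. Axin2, the feedback scaffold that is a standard readout of beta-catenin activity, was at 6.56 and 6.56 in normal ductal, at 6.39 and 6.45 in PDAC replicates 1 and 2 and at 8.42 in PDAC replicate 3, a fold of 3.63 over the next array. Lgr5, the R-spondin receptor of stem cells, was at 9.17 there and between 4.80 and 5.67 elsewhere, and 0.0401% of all genes stood as far or farther above the other arrays in this culture. Rnf43, the ligase that removes Frizzled receptors, was at 8.46 there and between 5.79 and 6.69 elsewhere. Tnfrsf19 was at 7.34 there and between 5.51 and 6.14 elsewhere. Lgr5, Rnf43 and Tnfrsf19 were named after their values were seen.

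Other targets did not follow that culture. The transcription factor gene Myc was at 10.48 in PDAC replicate 3, the lowest of the 5 arrays, and between 11.35 and 11.84 elsewhere. Bambi, Jun and Fosl1 were also lowest there, and these with Myc and Ccnd1 were named after their values were seen. Ccnd1, at 11.45 in PDAC replicate 3, lay within the range of the other arrays, 10.79 to 12.01.

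**Figure D4:**
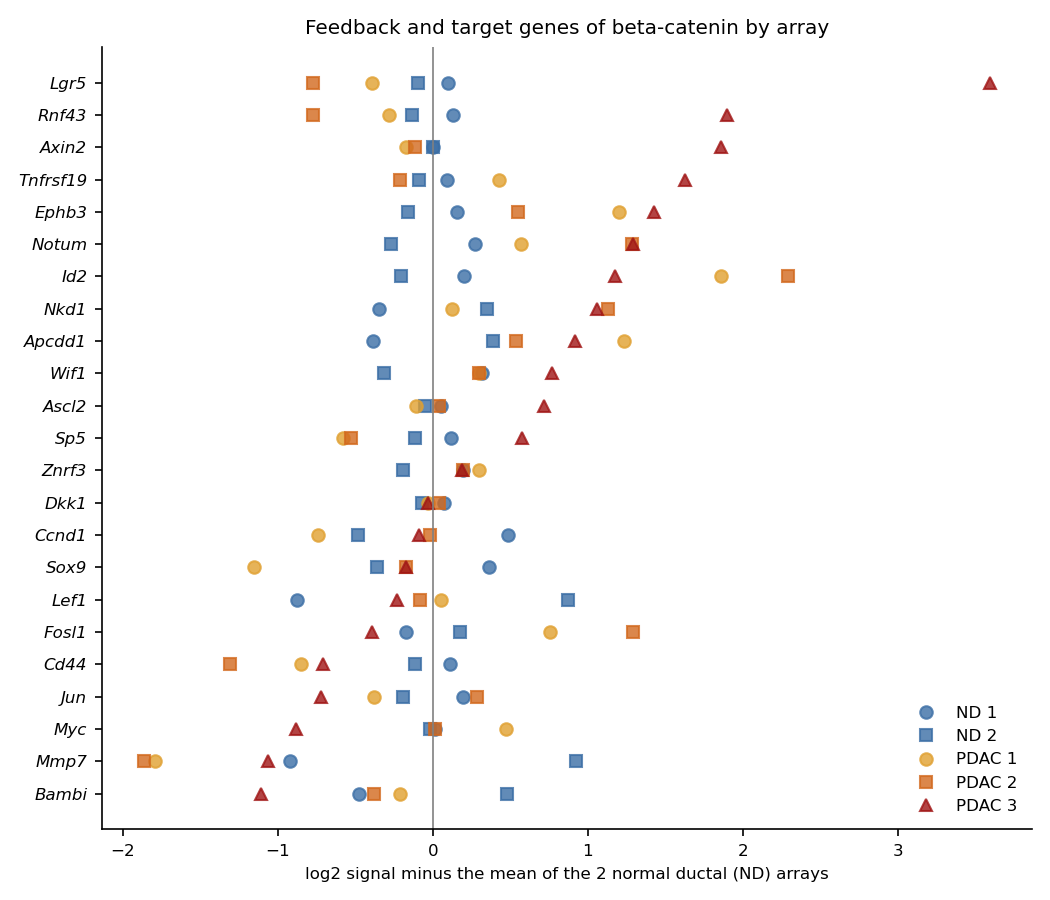
Log2 signal of 23 feedback and target genes of beta-catenin on each array, minus the mean of the 2 normal ductal (ND) arrays (x axis), ordered by PDAC replicate 3 (red triangles). Lgr5, Rnf43 and Axin2, and by a smaller step Tnfrsf19, stand apart in that culture alone, with the other 4 arrays within 1 log2 unit of the normal ductal mean. Myc and Bambi are lowest there.

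The groups did not overlap for 6 of the 23 targets (4 higher and 2 lower in PDAC), where 26.4% of all genes did not overlap. Limma called 0 of the 23 adjusted over all genes, and 3 higher and 1 lower before adjustment, with p under 0.05 (background 6.5% and 6.86%), with a median log2 difference of 0.23. The 3 were Id2, an inhibitor of helix-loop-helix factors, with 1.78 (SE 0.39, adjusted p = 0.238), the ephrin receptor Ephb3 with 1.06 (SE 0.32) and Notum, which strips the lipid from Wnt proteins, with 1.05 (SE 0.33). Notum lay under the median gene in signal, with 42.7% of all genes lower in mean. The hyaluronan receptor Cd44 was the 1 lower gene, with -0.96 (SE 0.22, adjusted p = 0.251). Axin2, with its 1 high culture, had a log2 difference of 0.52 (SE 0.76, adjusted p = 0.759).

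Other parts of the complex and the steps upstream were balanced between directions. Of 28 measured genes, limma called 0 adjusted over all genes, and before adjustment 3 were higher and 3 lower with p under 0.05 (6.5% and 6.86% of all genes), with a median log2 difference of 0.00. Cdk14, a kinase that primes the Wnt co-receptor LRP6 in dividing cells, was at 7.32 and 7.81 in the normal ductal pair against 9.71, 9.78 and 9.31 in PDAC cultures, so every PDAC culture lay well above both normal ductal ones (2.03, SE 0.24, adjusted p = 0.156). Rbx1, the RING subunit of the ligase that holds beta-TrCP, had 0.43 (SE 0.11) and the Wnt transducer Dvl2 0.84 (SE 0.24). The lower ones were the co-receptor Lrp5 (-0.93, SE 0.27) and, of the pathway that degrades axin, the poly-ADP-ribose polymerase Tnks2 (-0.37, SE 0.12) and the ligase Rnf146 (-0.19, SE 0.06). Fbxw11, the close relative of Btrc, had -0.10 (SE 0.17), and was named after its values were seen.

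Cofactors of TCF in the nucleus had values in both directions. Of 26 measured, limma called 0 adjusted over all genes, and before adjustment 4 were higher and 3 lower with p under 0.05 (6.5% and 6.86% of all genes). The groups did not overlap for 14 of the 26 (8 higher, 6 lower), where 26.4% of all genes did not overlap, and the median log2 difference was -0.07. Without the 50% of genes lowest in mean signal that share was 40.1%, a filter not applied to the 26. The corepressor genes Ctbp1 and Ctbp2 had opposite signs: Ctbp2 was at 10.38 and 10.29 in the normal ductal pair against 9.37, 9.42 and 9.45 in PDAC cultures (-0.92, SE 0.07, adjusted p = 0.119), and Ctbp1 had 0.42 (SE 0.10, adjusted p = 0.240). Bcl9, which bridges beta-catenin to Pygopus, was at 8.65 and 8.69 in the normal ductal pair against 9.17, 9.19 and 9.30 in PDAC cultures (0.55, SE 0.08, adjusted p = 0.171). The corepressor Tle2 had 0.92 (SE 0.25), the kinase gene Hipk2 -1.22 (SE 0.23) and the TCF kinase Tnik -0.34 (SE 0.10). Tle2 and Tnik lay under the median gene in signal, with 44.4% and 46.2% of all genes lower in mean.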

How the data were processed

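The authors deposited log2 signals of 35556 probe sets on 5 arrays. The submitters' processing notes name Transcriptome Analysis Console 1.0.0.234 and mm10. Normalization and the logarithm's base are not stated there, and log2 was read from the values (0.727 to 13.9). Another base would change fold changes, not tests. The platform annotation gave 1 symbol for 21789 probe sets, and the one with the highest mean was kept per gene (19938 genes). The test was limma 3.58.1 (R 4.3.3, intensity trend, both directions, Benjamini-Hochberg over all genes, threshold 0.05, 3 residual and 0.91 prior degrees of freedom), and the fit was tested on simulated data. Only 5 arrays limit the precision.

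The 10 genes, the lists and tests were chosen with earlier results of these data known. All 10 genes are named. Lists add up to 3 genes a direction with the smallest p under 0.05, besides Axin2, Lef1, Cdh1, Jup and Ctnna1, and of Apc's neighbours 1 a direction. Any other gene is a cell type marker or is said to be chosen with its values known. Genes absent from the annotation used here were not analysed here. The labels do not say that replicate numbers pair the cultures, and the test did not pair them. Tried besides were quantile normalization, arrays at a common median, filters on low genes, other variance models, all probe sets or their mean, array weights, a replicate block and leaving out each culture. Promoters were scanned and figures drawn with Python 3.11.15, pandas 2.3.3 and matplotlib 3.10.9.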

Additional observations from a re-analysis of the deposited data

How the results depend on the processing

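None of the 10 genes passed an adjusted p of 0.05 in limma under any of 15 alternatives, the smallest adjusted p being 0.167, while the count over all genes, 11 as reported, ran from 0 (with the replicate block or without any 1 PDAC culture) to 1287 (without normal ductal replicate 1). Of the 10, the count at an unadjusted p under 0.05 was 1 as reported, 0 with a common array median, 2 without an intensity trend (Btrc and Gsk3a) and 0 to 2 when each culture was left out in turn. With a replicate block it was 2, Ctnnb1 (-0.66) and Tcf7l1 (0.73), with 0 past the adjusted threshold. That block leaves PDAC replicate 3 without a partner and so drops it. Same-numbered cultures deviated with correlations of -0.18 and -0.04 over all genes. The deviations of the 2 normal ductal cultures mirror each other, so these values cannot tell whether a shared number marks a pair. Groups did not overlap for 4 of the 10 (26.4% of all genes) and for 5 to 7 with any 1 culture left out (32.4% to 54.9% of all genes), since fewer arrays overlap less often.

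Signs held in all alternatives run for 8 genes, though filters on low genes, other variance models and other uses of probe sets could not change them. Apc2 turned to 0.0053 with a common median, to 0.34 without normal ductal replicate 1 and to 0.064 without PDAC replicate 1, and ranged from -0.50 to 0.34 as each culture was left out. Gsk3b turned to 0.056 with a common median and to 0.017 both with the replicate block and without PDAC replicate 3, with -0.086 to 0.017 as each culture was left out. Leaving out any 1 PDAC culture gave, at an unadjusted p under 0.05, 3 to 4 genes of the complex and upstream list. The nuclear partners gave 5 to 8, the targets 3 to 4 and the junction partners 1 to 5. Of all genes, 9.78% to 13.8% lay under that p in these fits, and 0 passed the adjusted threshold. Fits that leave 1 normal ductal culture are not counted for the lists. The count of the 10 genes lowest in PDAC replicate 3 was 3 after quantile normalization.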
